A study of Homo sapiens with 12 samples.

Results

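The transcripts of 9 genes that encode subunits of Polycomb repressive complex 1 (PRC1) were followed in C4.2B cells exposed to a PI3K inhibitor, an EZH2 inhibitor or both. The genes were taken by symbol as subunits of the complex, with no threshold on measured values: the CBX readers CBX2, CBX6, CBX7 and CBX8, the RING proteins RING1 and RNF2, the PCGF proteins BMI1 and PCGF2, and the polyhomeotic protein PHC2. All 9 were listed in the count files, among 23228 genes. C4.2B is an established prostate cancer line of the castration-resistant type. PolyA RNA was sequenced from 12 libraries, 3 in each of 4 arms. Cells received vehicle (DMSO), 0.5 µM GDC-0941, which inhibits all class I PI3K isoforms (GDC), 5 µM GSK126, which inhibits EZH2 (GSK), or the pair at these doses (COMBO). All arms were treated for 24 h in medium with 10% charcoal-stripped serum, a low-androgen condition. Before that, cells of the GSK and COMBO arms had spent 6 days in GSK126, and those of the other arms had spent 6 days without it. The replicate plates (A, B and C) were seeded from these cultures of a single line, so p-values measure the spread between plates, which may be technical.

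PRC1 and PRC2 are the main Polycomb complexes. EZH2, the catalytic subunit of PRC2, trimethylates histone H3 at lysine 27, and the chromodomain of a CBX protein reads that mark and brings canonical PRC1 to it. RING1 or RNF2, paired with a PCGF protein, attaches ubiquitin to histone H2A, and polyhomeotic proteins polymerize through their SAM domain and compact chromatin. Variant PRC1 complexes carry RYBP or YAF2 in place of a CBX protein and do not need the methyl mark for their recruitment.

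Total counts in genes were 8785218 to 44437751 per library. Levels are given in CPM, the TMM-scaled count relative to library size. Where a library holds no read of a gene, up to 3 counts remain possible (0.0675 to 0.341 CPM by library, counting error only). The prostate label was checked against 8 luminal markers, which had counts in every arm and summed to 3509 to 3631 CPM in DMSO, 5346 to 5553 in GDC, 4340 to 4744 in GSK and 5844 to 6327 in COMBO. Not all followed the sum. Mean HOXB13 fell from 484 CPM in DMSO to 397 in GSK and 304 in COMBO, and mean STEAP2 from 661 to 562 in GSK. Of 8 markers of other cells, CD3E had 0 counts in all 12 libraries, PTPRC, PECAM1, KRT5 and TP63 did not exceed 0.330 CPM in any, and CD68, COL1A1 and ACTA2 brought the sum to 18.9 to 21.8 CPM under DMSO, 19.7 to 21.7 under GDC, 41.3 to 53.0 under GSK and 37.9 to 59.4 under COMBO. Of these, COL1A1 rose by 1.51 with GSK and 1.74 with COMBO, and CD68 by 0.64 and 0.58. ACTA2 differed, with log2 fold changes of -0.65 in GDC, 0.61 in GSK and -0.44 in COMBO. Their part in the results was not tested. In the edgeR quasi-likelihood fit with Benjamini-Hochberg adjustment, 14189 genes were tested and all 9 members passed its filter on low counts. With library totals in place of TMM the all-gene median log2 fold change shifted up, by 0.15 for GSK, by 0.21 for COMBO and by 0.17 for COMBO against GDC, so changes are relative to TMM. It also moved the share of calls that were higher from 52.8% to 64.0% in GSK, 52.5% to 63.3% in COMBO, 49.9% to 62.8% in COMBO against GDC and 41.4% to 52.3% in COMBO against GSK.

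The promoters of 3 members are shown because of the changes of these genes: CBX7 rose in each arm, PCGF2 rose with GSK126, and RING1 rose in COMBO. Its paralog RNF2 fell in COMBO, a call lost with library totals. Each run is the 250 bases before the transcription start, on the strand of the gene, from the RefSeq table for GRCh38.p14, which held 7 of the 9 members (9 starts). CBX2 and CBX8 had no entry. Capitals mark GGGCGG or its reverse complement CCGCCC, the letters of a GC box.
CBX7, chr22:39152681-39152930, minus strand: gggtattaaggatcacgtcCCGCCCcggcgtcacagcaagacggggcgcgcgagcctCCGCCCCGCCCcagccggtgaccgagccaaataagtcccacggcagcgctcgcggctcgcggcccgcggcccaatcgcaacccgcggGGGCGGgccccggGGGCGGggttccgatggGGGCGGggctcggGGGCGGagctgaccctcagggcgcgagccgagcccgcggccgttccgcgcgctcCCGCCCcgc
PCGF2, chr17:38746629-38746878, minus strand: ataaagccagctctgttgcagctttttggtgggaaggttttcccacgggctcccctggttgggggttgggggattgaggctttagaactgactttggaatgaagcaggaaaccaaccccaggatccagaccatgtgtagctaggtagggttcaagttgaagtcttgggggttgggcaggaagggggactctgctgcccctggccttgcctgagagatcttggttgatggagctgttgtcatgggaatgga
RING1, chr6:33208250-33208499, plus strand: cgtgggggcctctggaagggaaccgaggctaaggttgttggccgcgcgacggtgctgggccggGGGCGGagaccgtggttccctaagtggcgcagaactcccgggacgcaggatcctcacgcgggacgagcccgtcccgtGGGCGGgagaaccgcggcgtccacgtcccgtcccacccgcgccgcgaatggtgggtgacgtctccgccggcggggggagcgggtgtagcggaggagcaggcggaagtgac
CBX7 held 8 GC box matches, with overlapping ones counted separately, and 0.584% of 35116 promoter windows of this length held at least as many. RNF2 held 4, RING1 held 2, and PCGF2 held 0, as did 57.4% of all windows. The windows of BMI1 held 6 and 5, those of PHC2 held 4 and 6, and that of CBX6 held 4. At least 6 were held by 2.22% of all windows. The PCGF2 start in the RefSeq table lies inside the gene as GENCODE 44 draws it (chromosome 17, 38733898 to 38749817), so its other starts were not covered. The windows of RNF2 and CBX6 ran into the first exon of the gene as GENCODE 44 draws it, and a further window of BMI1 and of PHC2 lay inside the gene, so these are not wholly upstream sequence. The CBX7 window was 78.8% G or C, that of RNF2 74.4%, that of RING1 72.8% and that of PCGF2 54.0%, against a median of 58.0% over all windows. None of the 9 member windows held the E2F letters TTTCCCGC or TTTGGCGC (1.93% of all windows) or the FOXO letters GTAAACA (2.98%), both strands searched. The E-box CACGTG (6.34% of all windows) occurred once in a window of CBX6, of BMI1 and of PHC2.

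The first question was how each single agent changed these genes. GDC changed 5 of the 9 members (2 higher, 3 lower), where 40.1% of all tested genes were called, 20.0% higher and 20.0% lower. GSK changed 8 (6 higher, 2 lower), against 75.7% of all genes, 40.0% higher and 35.7% lower. COMBO changed 8 (5 higher, 3 lower), against 82.5% of all genes, 43.3% higher and 39.2% lower. With so many genes called, the number of members called is not a result about PRC1, and the values of each gene follow. The median log2 fold change over the members was -0.00 in GDC, 0.22 in GSK and 0.22 in COMBO, and over all tested genes it was 0.02, 0.06 and 0.05. Higher calls were 50.0% of all calls in GDC, but 40.2% with DESeq2 size factors and 35.9% without the filter.

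Cycling markers moved with the arms. All 6 (MKI67, TOP2A, PCNA, MCM2, CCNB1 and BUB1) fell in each arm, and their summed level was 2056 to 2153 CPM in DMSO, 1578 to 1594 in GDC, 946 to 1086 in GSK and 531 to 543 in COMBO. The largest changes were those of CCNB1 and TOP2A in GDC, which fell by 0.58 and by 0.46, and of PCNA and MCM2 with GSK126. The log2 fold change of PCNA was -1.59 in GSK and -2.94 in COMBO, and that of MCM2 was -1.54 and -2.78. The share of reads counted outside genes moved in the same order, from 23.7% to 24.6% of reads in DMSO libraries to 25.7% to 26.2% under GDC, 28.8% to 29.7% under GSK and 31.5% to 33.7% under COMBO, without overlap. The part of either in the results was not tested, and in bulk RNA fewer cycling cells and less RNA per cell cannot be told apart.

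**Figure D1:**
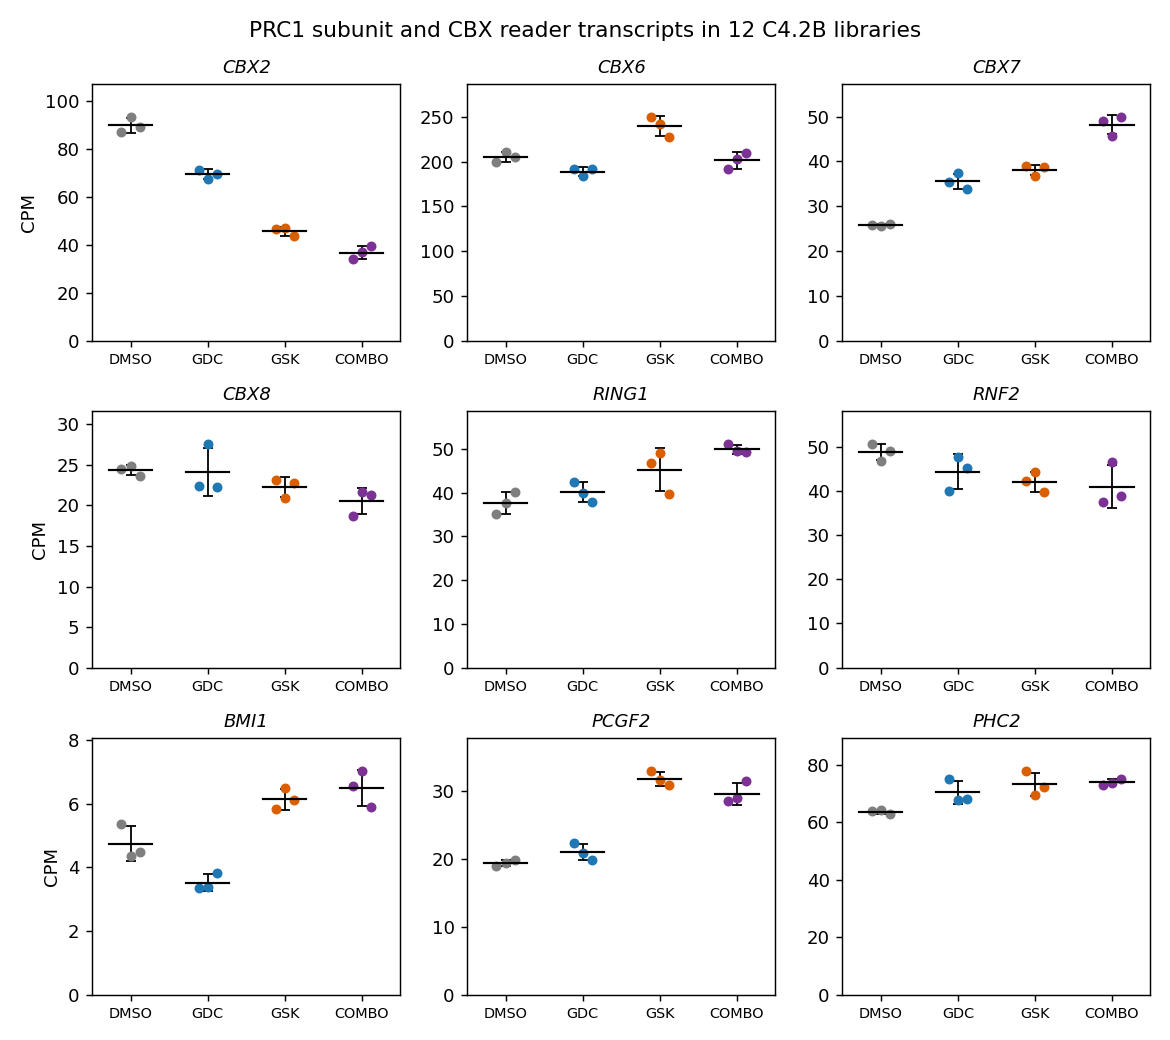
Level of each member in CPM (vertical axes, each from 0 on its own scale) in the 4 arms, with 1 point per library, a bar at the mean of 3 libraries and whiskers of 1 SD. CBX2 steps down from 89.9 CPM in DMSO to 36.8 in COMBO while CBX7 steps up from 25.8 to 48.2, and the libraries of the arms do not overlap in these steps except CBX7 between GDC and GSK.

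The CBX readers did not move as a family. CBX2 (chromosome 17, 79778148 to 79787983), a reader with a long charged region that compacts nucleosomes, stood at 87.0, 93.4 and 89.4 CPM in DMSO (replicates A, B and C) and at 71.4, 67.6 and 69.7 in GDC. It stood at 46.5, 47.1 and 43.6 CPM in GSK and at 34.0, 37.0 and 39.5 in COMBO. No library of any arm reached the range of the arm above it. CBX2 fell with GDC, where it decreased by 0.37 on the log2 scale (SE 0.055, adjusted p = 2.29e-05). With GSK it fell by 0.98 (SE 0.059, adjusted p = 7.78e-12). With COMBO it fell by 1.29 (SE 0.057, adjusted p = 2.58e-14), which left 0.408 of the DMSO level. It was the only member past an absolute log2 fold change of 1 in any arm.

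CBX7 (chromosome 22, 39120167 to 39152680), a reader that favours trimethylated lysine 27 and is known as a repressor of the INK4 locus, took the opposite course. It stood at 25.8, 25.5 and 26.0 CPM in the DMSO libraries and at 35.4, 37.3 and 33.9 in the GDC libraries. The GSK libraries held 38.9, 36.8 and 38.7 CPM and the COMBO libraries 49.0, 45.8 and 49.9. Every treated library lay above the DMSO libraries, every COMBO library lay above all others, and GDC and GSK overlapped. CBX7 rose by 0.46 with GDC (SE 0.061, adjusted p = 7.68e-06) and by 0.56 with GSK (SE 0.063, adjusted p = 9.47e-08). The COMBO rise was 0.90 (SE 0.058, adjusted p = 1.46e-11), or 1.87-fold. CBX2 and CBX7 kept these calls in all 19 alternatives that set no minimum change, which are the alternatives counted from here on.

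CBX6 (chromosome 22, 38861422 to 38872249), a neighbour of CBX7 with 247917 bases between them, was the highest member per kilobase of exon in DMSO, at 25.7 CPM per kb, and its values differed in sign between the drugs. It was at 199.7, 211.2 and 205.7 CPM in DMSO and lower in GDC, at 191.9, 183.9 and 191.6. In GSK it was above every other library, at 249.99, 242.2 and 227.5 CPM, and in COMBO it overlapped DMSO and GDC, at 191.6, 202.9 and 210.0. CBX6 rose by 0.22 in GSK (SE 0.048, adjusted p = 0.000328). The fall of 0.12 in GDC (SE 0.048, adjusted p = 0.0489) was lost with library totals and with the replicate block (adjusted p = 0.153 and 0.0662). The COMBO value of -0.03 missed the threshold (adjusted p = 0.558), with an interval of -0.13 to 0.07, and turned to 0.18 with library totals (adjusted p = 0.00168).

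CBX8 (chromosome 17, 79792132 to 79801683) lies 4148 bases from CBX2, yet changed much less. It was at 24.5, 24.9 and 23.6 CPM in the DMSO libraries and at 22.5, 27.5 and 22.3 in the GDC libraries. The GSK libraries held 23.1, 20.9 and 22.8 CPM and the COMBO libraries 18.8, 21.6 and 21.3. The GSK and COMBO libraries lay below the DMSO range, but only the COMBO fall of 0.24 passed the test (SE 0.083, adjusted p = 0.0132). That call was lost with library totals, where the value was -0.03, and without COMBO A, where it was -0.18 (adjusted p = 0.0700). The GSK value was -0.13, with an interval of -0.31 to 0.06. It was 0.03 with library totals, and it passed without the filter, at -0.21 (adjusted p = 0.0316).

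Levels of paralogs were compared per kilobase of exon. CBX2 was at 15.9 ± 0.566 CPM per kb in DMSO (SD, n = 3) and CBX7 at 3.45 ± 0.0333. In COMBO they were level, at 6.49 ± 0.486 and 6.46 ± 0.291. Of the length-scaled signal of the 4 CBX members, CBX2 made up 31.1% ± 0.302 in DMSO and 15.0% ± 0.429 in COMBO, and CBX7 made up 6.78% ± 0.224 and 15.0% ± 0.921. CBX6 held 50.5% of it in DMSO and 50.9% in GDC, then 61.8% under GSK and 58.4% under COMBO. CBX8 held 11.6% in DMSO and 11.6% in COMBO. CBX6 came first in every arm with or without division by length. The order of CBX7 and CBX8 in DMSO depended on it, because without it CBX7 held 7.46% and CBX8 7.05%, and in COMBO CBX7 then held 15.7% against 11.97% for CBX2. The sum over the 4 members was 49.7 to 52.3 CPM per kb in DMSO. It was lower in GDC (46.2 to 46.8) and COMBO (41.1 to 45.1), and GSK (46.9 to 50.3) overlapped DMSO.

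A ratio of 2 genes within a library does not depend on how libraries are scaled. The log2 ratio of CBX2 to CBX7 counts was 1.80 ± 0.0621 in DMSO (SD, n = 3), 0.97 ± 0.0992 under GDC, 0.26 ± 0.0913 under GSK and -0.39 ± 0.120 in COMBO. CBX2 had more counts than CBX7 in every DMSO, GDC and GSK library and fewer in every COMBO library. The difference from DMSO in COMBO was -2.19, or 0.219 of the DMSO ratio. The CBX6 to CBX7 ratio differed from DMSO by -0.58 in GDC, -0.34 in GSK and -0.93 in COMBO, and the CBX8 to CBX7 ratio by -0.48, -0.70 and -1.15. All of these ratios have CBX7 as denominator, which by itself lay above DMSO in each arm, so they are not independent results. CBX8 by itself overlapped DMSO in GDC. In each of these 9 comparisons the arms did not overlap, and the exact permutation test gave p = 0.1 (two-sided), the smallest it can give with 3 libraries against 3. This test therefore cannot reach 0.05 for a ratio, and 15 ratio comparisons were made in all.

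**Figure D2:**
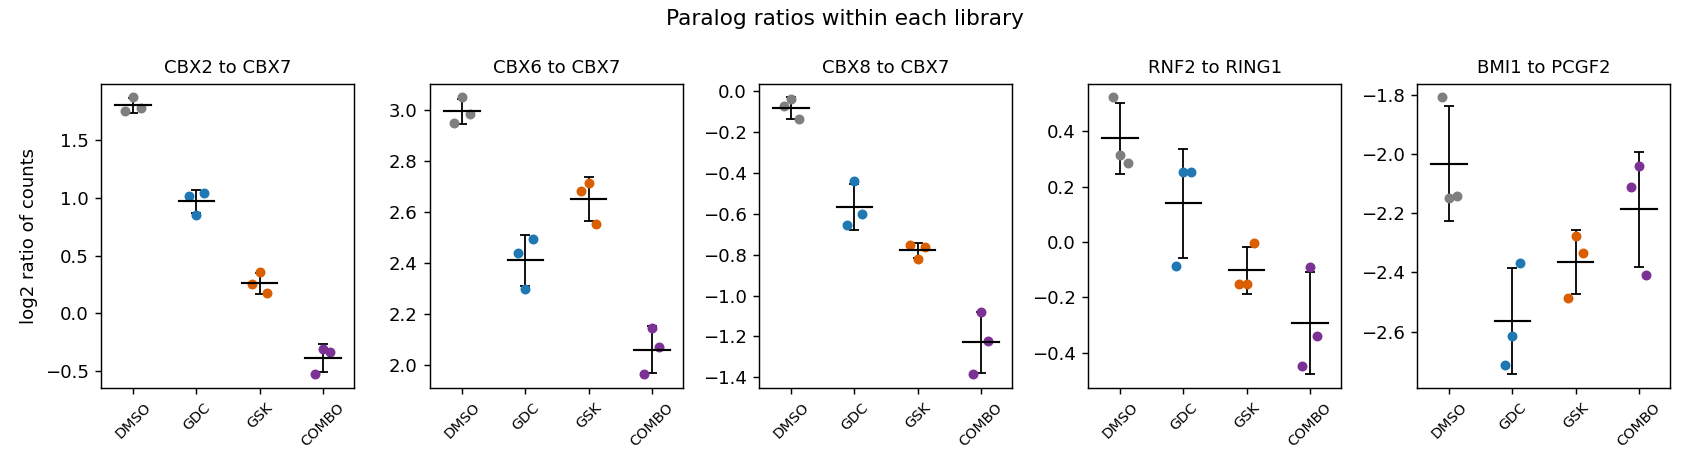
Log2 ratio of the counts of 2 paralogs within each library (vertical axes, each on its own scale and not from 0) in the 4 arms, with 1 point per library, a bar at the mean of 3 libraries and whiskers of 1 SD. CBX2 to CBX7 falls from 1.80 in DMSO to -0.39 in COMBO, and RNF2 to RING1 from 0.37 to -0.29, while BMI1 to PCGF2 in COMBO overlaps DMSO.

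The ubiquitin ligase subunits moved apart in a smaller way. RING1 (chromosome 6, 33208500 to 33212722) was at 35.2, 37.6 and 40.2 CPM in the DMSO libraries and at 42.4, 40.0 and 37.9 in the GDC libraries. The GSK libraries held 46.8, 49.1 and 39.7 CPM and the COMBO libraries 51.0, 49.4 and 49.2. GSK C lay within the DMSO range, and the COMBO libraries lay above all others. RING1 rose by 0.39 in COMBO (SE 0.069, adjusted p = 3.32e-05). Its GSK rise of 0.25 (SE 0.073, adjusted p = 0.00510) was lost without DMSO A, GSK A or GSK B, with values of 0.16, 0.18 and 0.13 (adjusted p = 0.0627, 0.0596 and 0.143). The GDC value was 0.07, with an interval of -0.08 to 0.22.

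RNF2 (chromosome 1, 185045526 to 185102603), also called RING1B and the main H2A ligase in many cells, was at 50.5, 46.8 and 49.0 CPM in DMSO and at 40.0, 47.7 and 45.2 in GDC. It was at 42.2, 44.2 and 39.7 CPM in GSK and 37.4, 46.4 and 38.9 in COMBO. The GSK and COMBO libraries lay below the DMSO range, COMBO B by a narrow margin. RNF2 fell by 0.21 with GSK (SE 0.080, adjusted p = 0.0227) and by 0.24 with COMBO (SE 0.076, adjusted p = 0.00656), but with library totals the values were -0.06 and -0.04 (adjusted p = 0.512 and 0.664). Without GSK C the GSK value was -0.17 (adjusted p = 0.101). The GDC value of -0.13 (interval -0.29 to 0.03) missed the threshold. It passed without GDC B, at -0.23 (adjusted p = 0.0460), and without the filter, at -0.19 (adjusted p = 0.0212).

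The balance of the RING paralogs was free of that scaling. The log2 ratio of RNF2 to RING1 counts was 0.37 ± 0.129 in DMSO (SD, n = 3). It was 0.14 ± 0.197 under GDC, -0.10 ± 0.0852 under GSK and -0.29 ± 0.183 under COMBO. No treated library reached the DMSO range (exact permutation p = 0.1 in each arm, the smallest possible). Without GDC A, the GDC difference of -0.23 was -0.12. Per kilobase of exon, RING1 was 62.4% ± 2.12 of the pair in DMSO and 72.5% ± 2.56 in COMBO, whereas without division by length it was 43.6% and 55.1%.

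PCGF2 and BMI1 are the PCGF paralogs of canonical PRC1, and they stimulate the RING ligase. PCGF2 (chromosome 17), also known as MEL18, was at 18.9, 19.5 and 19.8 CPM in DMSO and 22.3, 20.9 and 19.8 in GDC. It was at 32.9, 31.5 and 30.9 CPM in GSK and 28.4, 28.9 and 31.5 in COMBO. All 6 libraries with GSK126 lay above all 6 without it. PCGF2 rose by 0.70 with GSK (SE 0.069, adjusted p = 1.61e-08) and 0.60 with COMBO (SE 0.066, adjusted p = 5.77e-08), and these calls held in all 19 alternatives. The GDC value was 0.10 (adjusted p = 0.269). Of the exon bases of PCGF2, 48.5% overlap CISD3 on the opposite strand, and since the use of strand in counting is not given in the sources used here, its level is uncertain. CISD3 itself fell by 0.63 in GSK and by 1.18 in COMBO.

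BMI1 (chromosome 10, 22321099 to 22331484), a long-studied oncogene of this family, had the fewest counts of the members. It was at 5.37, 4.37 and 4.48 CPM in the DMSO libraries and at 3.36, 3.39 and 3.82 in the GDC libraries. The GSK libraries held 5.82, 6.48 and 6.10 CPM and the COMBO libraries 6.56, 7.01 and 5.90. Its counts ran from 38 to 186 per library. GDC lay below DMSO, and GSK and COMBO lay above it. BMI1 rose by 0.50 in COMBO (SE 0.122, adjusted p = 0.000815). The GDC fall of 0.39 (SE 0.141, adjusted p = 0.0351) was lost with DESeq2, library totals and without GDC A or GDC B (adjusted p = 0.0603, 0.0526, 0.0610 and 0.0710). The GSK rise of 0.42 (SE 0.133, adjusted p = 0.00829) was lost with DESeq2, without the filter and without DMSO C or GSK B (adjusted p = 0.0553, 0.0677, 0.0637 and 0.0703). The read-through gene COMMD3-BMI1, which shares 22.8% of the BMI1 exon bases, was listed at 0 counts in all 12 libraries, so the BMI1 level is uncertain and is not compared per length. COMMD3, the gene upstream, rose by 0.81 in GSK and 0.74 in COMBO. The log2 ratio of BMI1 to PCGF2 counts was -2.03 ± 0.194 in DMSO (SD, n = 3) and differed from it by -0.53 in GDC and -0.33 in GSK (exact permutation p = 0.1 each), and by -0.15 in COMBO, where the libraries overlapped (exact permutation p = 0.6). Without DMSO A the GSK difference was -0.22, and the COMBO difference was -0.04 without DMSO A or COMBO C.

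PHC2 (chromosome 1, 33323623 to 33431095), a polyhomeotic protein, was at 63.9, 64.2 and 62.8 CPM in the DMSO libraries and at 75.0, 67.8 and 68.0 in the GDC libraries. The GSK libraries held 77.6, 69.4 and 72.2 CPM and the COMBO libraries 72.9, 73.5 and 75.0. Every treated library lay above the DMSO libraries, by a small amount. PHC2 rose by 0.22 in COMBO (SE 0.053, adjusted p = 0.000913) and 0.20 in GSK (SE 0.055, adjusted p = 0.00295), the latter not without the filter or without GSK A (adjusted p = 0.130 and 0.0856). The GDC value of 0.14 (SE 0.054, adjusted p = 0.0418) passed in only 2 of 19 alternatives, library totals and the compared arms alone, with adjusted p from 0.0134 to 0.480. The call was lost when any 1 of the 12 libraries was left out, and the value was lowest, at 0.06, without GDC A.

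**Figure D3:**
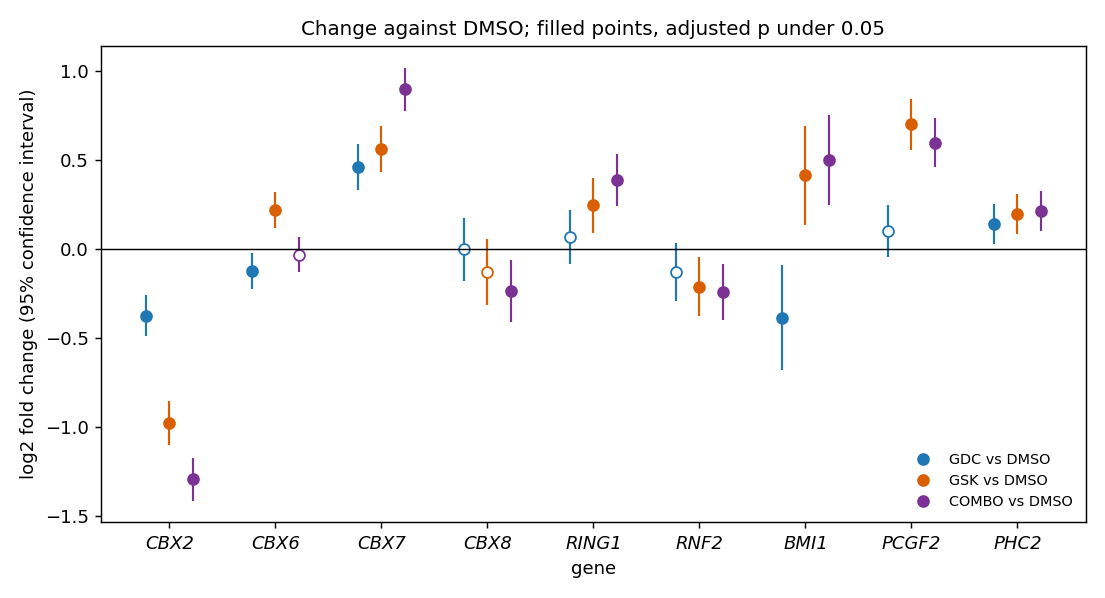
Log2 fold change (vertical axis) of each member (horizontal axis) in GDC, GSK and COMBO against DMSO, with 95% confidence intervals as vertical lines; points are filled where the adjusted p was under 0.05. CBX2 has the lowest value (-1.29 in COMBO) and CBX7 the highest (0.90 in COMBO), and PCGF2 separates GSK and COMBO (0.70 and 0.60) from GDC (0.10).

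The members also kept different company across the 12 libraries, given here as a description over libraries that share arms and depth. CBX2 was most like CENPB, a centromere protein (Pearson r = 0.996 of log2 CPM), and 2808 of 11284 genes reached an r of 0.9 with it. CBX7 was most like NTNG1 (r = 0.990), with 974 such genes. PCGF2 was most like KDELR1, a receptor that returns proteins to the endoplasmic reticulum (r = 0.992), with 1369 such genes. The best matches of the rest were ARMC7 for CBX6 (0.961), KATNAL1 for BMI1 (0.977), RRAS for RING1 (0.965), USP46 for RNF2 (0.963), C21orf122 for PHC2 (0.946) and LYRM4 for CBX8 (0.868). Among the members, CBX2 and CBX7 had the most negative r (-0.93).

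The next comparison set the combination beside each single agent. Against GDC, COMBO changed 6 of 9 members (4 higher, 2 lower), where 76.0% of all genes were called, 37.9% higher and 38.0% lower. CBX2 fell by 0.92 (SE 0.059, adjusted p = 1.86e-11), BMI1 rose by 0.89 (SE 0.136, adjusted p = 6.87e-06), PCGF2 by 0.50, CBX7 by 0.44 and RING1 by 0.32. CBX8 fell by 0.24 (adjusted p = 0.0182), a call lost without DMSO C, GDC B or COMBO A, where the values were -0.20, -0.09 and -0.14. It was also lost with library totals (-0.06) and with a minimum mean of 1 CPM (-0.17). The CBX6 value of 0.09 missed the threshold (adjusted p = 0.0895) and passed it in 9 of 19 alternatives, 7 of them without DMSO A, DMSO B, DMSO C, GDC C, GSK A, GSK B or COMBO A. RNF2 and PHC2, at -0.11 and 0.07, also missed it, but RNF2 passed without COMBO B (-0.21) and turned to 0.06 with library totals. PHC2 passed without GDC A (0.14), with a minimum mean of 1 CPM (0.14) and with library totals, at 0.25 (adjusted p = 0.000352).

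Against GSK, COMBO changed 3 of 9 members (1 higher, 2 lower), where 45.9% of all genes were called, 19.0% higher and 26.9% lower. CBX2 fell by a further 0.32 (SE 0.063, adjusted p = 0.000357) and CBX6 by 0.25 (SE 0.048, adjusted p = 0.000231), and CBX7 rose by a further 0.34 (SE 0.060, adjusted p = 0.000114). These calls held in all 19 alternatives. RING1 was higher by 0.14 without passing the test (adjusted p = 0.114), although the libraries of the arms did not overlap. It passed without GSK B, at 0.24 (adjusted p = 0.0226), with library totals, at 0.20 (adjusted p = 0.0366), and without the filter, at 0.17 (adjusted p = 0.0479). The values of the other 5 members ran from -0.11 for CBX8 to 0.09 for BMI1, none past the threshold, and BMI1 had the widest interval, from -0.18 to 0.36.

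Whether the pair departed from the sum of the single effects was tested by the interaction, the COMBO log2 fold change less those of both single agents. No member was called by edgeR (0 of 9), where 21.4% of all genes were, 4.86% higher and 16.5% lower. At an unadjusted p under 0.05 there were 2, BMI1 at 0.47 (interval 0.07 to 0.87, adjusted p = 0.0847) and PCGF2 at -0.21 (interval -0.41 to -0.00, adjusted p = 0.144), and DESeq2 called 0 with 1 at an unadjusted p under 0.05. Among all genes, higher calls were 22.7% of interaction calls, whereas DESeq2 size factors gave 35.2%, a minimum mean of 1 CPM gave 40.7% and no filter gave 55.4%. The interval of CBX2 was -0.12 to 0.23 around 0.06 and that of CBX7 was -0.31 to 0.05 around -0.13.

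The rest of PRC1 was read from lists of genes by role. Of all tested genes, 40.1% were called in GDC (20.0% higher, 20.0% lower) and 75.7% in GSK (40.0% higher, 35.7% lower). In COMBO 82.5% were called, 43.3% higher and 39.2% lower. Here and in the lists below, the number of genes called is therefore not a result about the list. Of 4 other canonical genes, GDC raised 1 and lowered 1, GSK raised 1 and lowered 1, and COMBO raised 2 and lowered 1, with medians of 0.06, -0.03 and 0.25. PHC1, a polyhomeotic paralog, rose in each arm, by 0.66, 1.74 and 2.05, from 3.24 ± 0.133 CPM in DMSO to 13.4 ± 1.30 in COMBO (SD, n = 3). It shares 18.05% of its exon bases with M6PR on the opposite strand. PHC1 was 9.76% of the 3 PHC genes per kilobase in COMBO, against 3.14% in DMSO, beside 59.7% for PHC2, and without division by length PHC3 came first, with 56.9%. SCML2, a sex comb protein that binds PRC1, fell in each arm, by 0.55, 1.49 and 2.05, from 55.3 to 13.3 CPM. PHC3 rose by 0.49 in COMBO (adjusted p = 9.14e-05), and its values in GDC and GSK were 0.07 and -0.09, the latter -0.29 and past the threshold without GSK C.

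Of 16 genes of variant PRC1, 5 fell in GDC (median -0.07), 5 rose and 7 fell in GSK (median -0.09), and 6 rose and 6 fell in COMBO (median -0.05). AUTS2, which turns a PCGF5 complex toward activation, rose by 2.29 in GSK and 2.41 in COMBO, from 15.7 ± 2.52 CPM to 83.4 ± 1.94. PCGF5, its partner, rose by 1.12 and 1.44. PCGF6 and E2F6 are both of the E2F6-bound variant complex. PCGF6 fell by 0.32, 1.30 and 1.33 and E2F6 by 0.43, 1.07 and 1.30 in GDC, GSK and COMBO. MGA and L3MBTL2, of the same complex, differed from each other. Mean MGA was higher in COMBO, at 131 CPM against 91.8 in DMSO, and its libraries overlapped DMSO in GDC and GSK. Mean L3MBTL2 fell from 100 CPM in DMSO to 65.9 in COMBO. PCGF1 fell in GDC by 0.28 (adjusted p = 0.0487), a call lost in 7 alternatives, among them those without DMSO C (-0.16), GDC A, GDC B or GDC C. It was at -0.20 in GSK, past the threshold without DMSO A (-0.28) or DMSO B (-0.30), and at -0.06 in COMBO. PCGF3 was at 0.07, 0.04 and 0.02 in the arms, none past the threshold, though with library totals GSK and COMBO passed it, at 0.19 and 0.23.

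**Figure D4:**
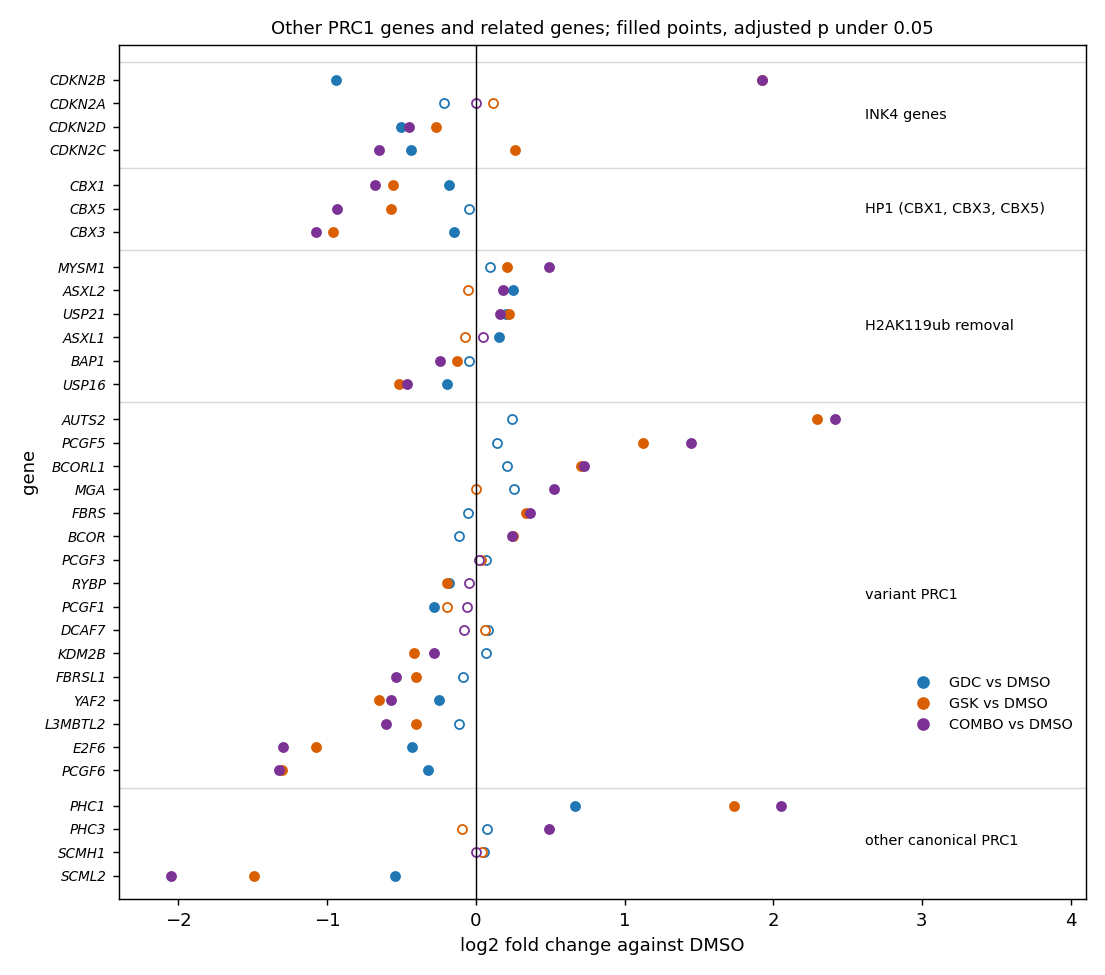
Log2 fold change against DMSO (horizontal axis) of other canonical PRC1, variant PRC1, H2AK119ub removal, HP1 and INK4 genes (vertical axis) in GDC, GSK and COMBO, drawn in that order so that later points can cover earlier ones, with filled points where the adjusted p was under 0.05. AUTS2 (2.41 in COMBO) and PHC1 (2.05) lie farthest right and SCML2 (-2.05) farthest left.

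The mark that PRC1 writes is removed by deubiquitinases. Of 6 tested genes of that role, 3 rose and 1 fell in GDC, 2 rose and 2 fell in GSK, and 3 rose and 2 fell in COMBO, with medians of 0.12, -0.06 and 0.10. ASXL3 was not tested. USP16, which acts before mitosis, fell by 0.19 in GDC, 0.52 in GSK and 0.46 in COMBO, and MYSM1 rose by 0.49 in COMBO. ASXL2, a cofactor of BAP1, rose by 0.25 in GDC, a call lost without DMSO B, DMSO C, GDC A or GDC C. USP21 rose by 0.20 in GDC and 0.23 in GSK, and the GSK call was lost without the filter, DMSO A, GSK A or GSK B. The GDC call was lost in 12 alternatives, among them those without DMSO A, DMSO C, any GDC library, GSK A, GSK B or COMBO A.

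CBX1, CBX3 and CBX5 also carry a chromodomain but belong to heterochromatin protein 1 and read lysine 9 methylation. All 3 fell in GSK and COMBO, with medians of -0.57 and -0.93, and 2 fell in GDC. CBX3, the highest of them per kilobase at 142 CPM per kb in DMSO, fell by 0.96 in GSK and 1.08 in COMBO. CBX5 fell by 0.57 and 0.93 and CBX1 by 0.56 and 0.68. The GDC falls were 0.18 for CBX1 and 0.15 for CBX3, the latter lost with library totals and without DMSO A or GDC A.

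The INK4 genes brake the cell cycle, and CDKN2A and CDKN2B among them are classic PRC1 targets. CDKN2A, of whose exon bases 15.3% overlap CDKN2B-AS1 on the opposite strand, held 13.1 ± 1.37 CPM under DMSO and 13.5 ± 1.21 under COMBO (SD, n = 3) and passed in no arm (log2 fold changes of -0.21, 0.11 and 0.00). CDKN2B rose by 1.92 in GSK and 1.93 in COMBO, from 0.737 ± 0.370 CPM in DMSO (3 to 42 counts a library) to 3.27 ± 0.358 and 3.28 ± 0.417. Its GDC value of -0.94 (adjusted p = 0.0479) lost its call in 10 alternatives, among them those without DMSO B, DMSO C (-0.63), any GDC library, GSK C or COMBO C. CDKN2D fell by 0.50 in GDC and by 0.27 in GSK, the latter lost with DESeq2, library totals and without GSK C. In COMBO CDKN2D was also called lower, at 6.29 ± 0.182 CPM against 8.73 ± 0.455 in DMSO. CDKN2C fell by 0.44 in GDC, rose by 0.26 in GSK and fell by 0.65 in COMBO, where it was at 16.0, 18.5 and 17.9 CPM against 26.1, 27.6 and 28.1 in DMSO.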

How the data were processed

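RNA of 12 C4.2B libraries (4 arms, 3 plates each) was sequenced after polyA selection. The authors aligned reads to hg38 with STAR and deposited raw counts per gene from HTSeq; versions, annotation and use of strand are not given in the sources used here, and their DESeq2-normalized table was not used here. HTSeq summary lines, 23.7% to 33.7% of reads, were left out.

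Counts were fitted with edgeR 4.0.16 in R 4.3.3 (quasi-likelihood test, two-sided, TMM scaling, all 12 libraries in 1 model), over the 14189 genes that filterByExpr kept, with Benjamini-Hochberg adjustment and a threshold of 0.05. Ratios of paralogs used a prior count of 0.5 and a two-sided exact permutation test. Levels per kilobase used exon unions of GENCODE 44. The main edgeR fit was tested on simulated data for COMBO against DMSO only, with a far smaller share of changed genes than in these data. The other comparisons and the alternatives were not tested in this way. Replicates of an arm differed beyond sampling noise (chi-square per degree of freedom 1.76 to 6.18), so none was counted as a duplicate. Total counts were 8785218 to 44437751, and no per-sample column was left unmatched.

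Alternatives were DESeq2 1.42.0, its size factors, scaling by totals, omission of the filter, a minimum mean of 1 CPM, a minimum log2 change of 1 in either direction, the compared arms alone, the replicate letter as a block and each library left out. Those for list genes and shares were added after seeing the data. The members and lists were chosen with earlier results of these data known. Named are all members, in each list the 2 called genes with the largest change in each arm against DMSO, the CBX, PCGF and PHC paralogs, and the best match of each member by correlation. CISD3, COMMD3, CDKN2A, MGA and L3MBTL2, and E2F6, CDKN2C, CDKN2D and USP16 in further arms, were named after their values were seen. One item is not reported here.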

Additional observations from a re-analysis of the deposited data

Results flagged for a closer look

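In 5 of 33 tested genes of the PRC1-related lists, against 21.4% of all genes, the effect of GDC differed between cells with and without GSK126 by the interaction term of the edgeR fit (the COMBO log2 fold change less those of both single agents, Benjamini-Hochberg adjusted). The interaction was 0.51 for PHC3, 0.32 for RYBP, a subunit of variant PRC1, 0.25 for USP16 and -0.48 for CDKN2C, and each was called in all 18 alternatives that set no minimum change. That of DCAF7 was -0.23 and was called in only 4 of 18 alternatives, with adjusted p from 0.0146 to 0.301, and in no fit that left out any of DMSO A, B or C, GDC A, B or C, GSK A, B or C, or COMBO A.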

How the results depend on the processing

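Of 30 calls on members, 20 held in every alternative that set no minimum change, and 0 reversed. Members called in GDC were 5, but 3 with DESeq2, 3 with library totals, 3 with the replicate block, and 3 to 4 with a library left out (3 without GDC A). A minimum log2 change of 1 in either direction left 0 in GDC, 0 in GSK, 1 in COMBO (CBX2), 0 in COMBO against GDC and 0 in COMBO against GSK. Whether the replicate letters pair the libraries was not settled. Deviations of same-letter libraries correlated at -0.084 to 0.188 (median -0.022, 2 of 18 pairs over 0.1). Those of different letters correlated at -0.146 to 0.104 (median -0.0095, 1 of 36 over 0.1). The 2 same-letter pairs were GDC A with COMBO A (0.116) and GDC B with COMBO B (0.188). Of 12 libraries, 6 correlated best with their own letter. The block changed 2 member results in all.

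Values not past the threshold changed sign with library totals, to 0.033 for CBX8 in GDC, 0.025 for CBX8 in GSK, 0.060 for RNF2 in COMBO against GDC, 0.022 for RNF2 in COMBO against GSK, 0.15 for PCGF1 in COMBO, and 0.059 for PHC3 in GSK. CBX6 in COMBO became 0.18 (adjusted p = 0.00168) and, with a mean of at least 1 CPM, 0.0033. RNF2 in COMBO against GSK was 0.00061 without the filter and 0.00022 with a mean of at least 1 CPM. PCGF3 in COMBO was -0.011 with DESeq2, -0.012 with its size factors, -0.031 without the filter and -0.0097 with the compared arms alone, and in GSK -0.044 without the filter.

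With a library left out, ranges that crossed 0 were -0.16 to 0.020 for CBX8 and -0.0094 to 0.095 for RING1 in GDC, -0.14 to 0.064 for RNF2 in COMBO against GSK, and, for the interaction, -0.15 to 0.080 for CBX8, -0.011 to 0.21 for RING1 and -0.0069 to 0.23 for RNF2. They were -0.14 to 0.10 for PCGF1 and -0.0075 to 0.027 for PCGF3 in COMBO, -0.029 to 0.040 for PCGF3 in GSK and -0.052 to 0.081 for PHC3 in GDC. The causes were not tested. Of 47 calls on named list genes, 39 held in every alternative that set no minimum change. Counts of 38 to 186 per library limit BMI1, and 3 plates an arm limit every ratio.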
